A study of Mus musculus with 35 samples.

Results

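The histone H3 lysine 27 acetylation (H3K27ac) peaks of 2 wild-type and 2 Mettl14 knockout lines of mouse neural progenitor cells were compared across the genome. All peaks of the 4 deposited H3K27ac lists were members, 254899 in all, with 80947 in the wild-type line 532, 55130 in the wild-type line 541, 55633 in the knockout line 530 and 63189 in the knockout line 534. The 4 lists came from 4 of the 35 samples of the series, which also held H3K27me3 lists of the same lines and RNA sequencing of several batches of cultures. Each list set the immunoprecipitated DNA of 1 culture line against the input of that line, so the line was the replicate and each genotype had n = 2.

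The labels give all 4 lines as neural progenitor cells from embryos, with the genotype WT or Mettl14 KO. The titles of the 4 H3K27ac samples name no batch, so whether they were processed together is unknown. The targeted allele was made in G4 embryonic stem cells injected into c57 blastocysts. The protocols describe a conventional knockout, made by EIIa-Cre deletion in the germ line and intercrosses of Mettl14 +/- mice, and a brain deletion with nestin-Cre (Mettl14 f/f;nes-cre). They do not say which of these gave the lines, and the labels of the 4 samples name no treatment. RNA came from 4 libraries labelled with the same 4 lines (batch 3, 2 WT and 2 KO) and from 6 libraries of other lines (batch 1, 3 WT and 3 KO). Nothing in the labels says whether the lines of a genotype came from 1 litter or several, so every p-value here measures the spread between these lines or libraries.

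H3K27ac sits on the nucleosomes of active promoters and enhancers. It is laid down by the acetyltransferases p300 and CBP and removed by histone deacetylases, and it occupies the residue that Polycomb repressive complex 2 methylates at silenced developmental genes (H3K27me3). Mettl14 is the partner of Mettl3 in the enzyme complex that writes N6-methyladenosine (m6A) into messenger RNA. Broad stretches of H3K27ac are typical of genes that define a cell's identity, which in neural progenitors include the radial glia regulators Sox2, Pax6 and the Notch targets of the Hes family.

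The promoters of 5 genes are shown first, because the peak lists of the 2 genotypes differed there and the RNA of the same gene differed in the same direction. Otx2, Six3 and Pcp4l1 had a promoter peak in both wild-type lists and in neither knockout list, and Mog and Lrrtm4 had one in both knockout lists and in neither wild-type list. The sequences are RefSeq's on GRCm38.p6, 250 bases before to 50 after the annotated start, 5′ to 3′ on the gene's strand, with CpG sites in capitals.
Otx2, chr14:48665060-48665359, minus strand: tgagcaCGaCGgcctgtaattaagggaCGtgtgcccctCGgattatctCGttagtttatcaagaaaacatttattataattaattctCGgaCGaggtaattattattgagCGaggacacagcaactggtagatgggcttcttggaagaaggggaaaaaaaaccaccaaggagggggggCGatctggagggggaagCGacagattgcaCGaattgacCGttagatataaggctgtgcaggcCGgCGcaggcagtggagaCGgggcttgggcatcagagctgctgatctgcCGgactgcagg
Six3, chr17:85620584-85620883, plus strand: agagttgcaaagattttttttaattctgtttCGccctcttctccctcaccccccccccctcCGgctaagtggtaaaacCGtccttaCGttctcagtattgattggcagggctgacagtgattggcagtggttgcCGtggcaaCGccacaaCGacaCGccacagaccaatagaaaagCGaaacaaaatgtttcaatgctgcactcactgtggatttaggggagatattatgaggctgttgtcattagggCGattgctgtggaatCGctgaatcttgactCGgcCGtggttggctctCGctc
Pcp4l1, chr1:171196219-171196518, minus strand: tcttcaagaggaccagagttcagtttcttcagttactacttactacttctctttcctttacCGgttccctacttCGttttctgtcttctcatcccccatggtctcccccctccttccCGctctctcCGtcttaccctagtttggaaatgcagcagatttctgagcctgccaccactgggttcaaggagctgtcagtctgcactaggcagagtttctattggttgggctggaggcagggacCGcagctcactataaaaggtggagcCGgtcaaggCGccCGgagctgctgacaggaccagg
Mog, chr17:37023349-37023648, minus strand: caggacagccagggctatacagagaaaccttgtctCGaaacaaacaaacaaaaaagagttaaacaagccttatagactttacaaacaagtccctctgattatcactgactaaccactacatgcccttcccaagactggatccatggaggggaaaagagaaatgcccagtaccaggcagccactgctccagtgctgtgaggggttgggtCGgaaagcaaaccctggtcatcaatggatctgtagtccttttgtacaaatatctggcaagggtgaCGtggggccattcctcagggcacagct
Lrrtm4, chr6:80018627-80018926, plus strand: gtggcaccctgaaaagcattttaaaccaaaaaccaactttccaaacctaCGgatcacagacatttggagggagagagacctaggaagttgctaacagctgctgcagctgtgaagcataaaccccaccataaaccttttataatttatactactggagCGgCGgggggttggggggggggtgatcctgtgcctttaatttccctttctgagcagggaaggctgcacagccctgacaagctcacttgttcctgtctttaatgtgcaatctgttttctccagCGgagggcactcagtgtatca
They held 16, 14, 8, 3 and 4 CpG sites in this order, against a median of 14 over the 16521 promoters of named genes that could be matched to the RefSeq table. The table matched 65.6% of the genes with the mark in both WT lines only and 72.6% of those with the mark in both KO lines only, under the 80% needed, so a comparison of promoter sequence between the classes was void.

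The widest H3K27ac peak of both wild-type lists covered Mir9-1, a gene of the neural microRNA miR-9. Its 2 mature products (RefSeq, GRCm38.p6, bases 2 to 8 as the seed in capitals) do not share a seed.
mmu-miR-9-5p, chr3:88215613-88215635, plus strand: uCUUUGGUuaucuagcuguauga
mmu-miR-9-3p, chr3:88215652-88215673, plus strand: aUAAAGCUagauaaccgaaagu

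The knockout lists covered less of the genome than the wild-type lists. The union of the peaks covered 82.7 Mb in WT 532 and 68.7 Mb in WT 541, against 50.5 Mb in KO 530 and 64.8 Mb in KO 534. The means were 75.7 ± 9.86 Mb for WT and 57.7 ± 10.1 Mb for KO (SD, n = 2 each), a ratio of 0.762, and the groups did not overlap. An exact two-sided permutation test gave p = 0.333, which is the smallest value that 2 lines against 2 can give. The KO minus WT difference of -18.05 Mb became -11.08 Mb without WT 532 and -10.89 Mb without KO 530. The number of peaks did not separate the genotypes: it averaged 68038.5 ± 18255 in WT and 59411 ± 5343 in KO (exact permutation p = 1), and without WT 532 the KO lines had on average 4281 more peaks than WT 541. The lists hold no read counts, so their sequencing depth is unknown, and a difference in depth or in enrichment between the lines cannot be told apart from a difference in acetylation.

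**Figure D1:**
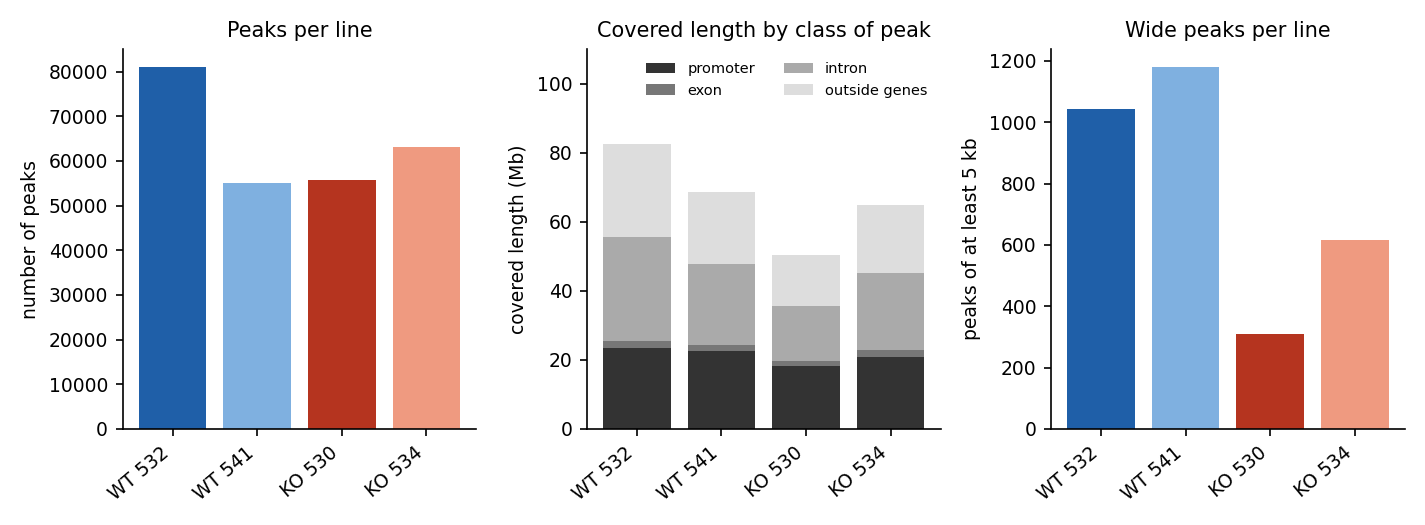
Bars give, for each of the 4 culture lines, the number of H3K27ac peaks (left), the length they cover in Mb, stacked by the class of the peak (middle), and the number of peaks of at least 5 kb (right). The KO lines covered less (50.5 and 64.8 Mb) than the WT lines (82.7 and 68.7 Mb) and had fewer wide peaks, while the numbers of peaks overlapped.

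Long peaks separated the genotypes. The 2 WT lists held more of them, since peaks of at least 5 kb numbered 1042 in WT 532 and 1179 in WT 541, against 308 in KO 530 and 617 in KO 534. The longest peak measured 37042 and 37317 bases in the WT lists and 20280 and 32349 bases in the KO lists. The typical peak was short in all 4, with median widths of 705, 880, 652 and 747 bases in the order WT 532, WT 541, KO 530 and KO 534, an order kept below, and these overlapped between the genotypes. The authors' fold enrichment over input, which can be ranked only within a list, had medians of 3.02, 3.38, 3.31 and 3.32.

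Promoters made up 17.6%, 24.4%, 23.4% and 21.9% of the peaks, a promoter being the window of 1 kb either side of a named transcript's start. Their median fold was 6.14, 6.42, 6.26 and 7.23, whereas peaks in introns had 2.92, 3.16, 3.15 and 3.17. Among the 5 peaks of highest fold in each list were those at the starts of Baz2b, a chromatin reader gene, in WT 532 (26.5), of Skp1a, a ubiquitin ligase subunit gene, in WT 541 (23.7), of the microRNA gene Mirlet7i in KO 530 (19.1) and of the Ets factor gene Elk4 in KO 534 (25.4). The promoter peaks of the KO lists covered 18.3 and 20.9 Mb, those of the WT lists 23.3 and 22.5 Mb. Intron peaks covered 30.1 and 23.6 Mb in WT against 16.1 and 22.2 Mb in KO, and peaks outside genes 27.2 and 21.0 Mb against 14.8 and 19.7 Mb. In these 3 classes both KO lists covered less than both WT lists. Exon peaks covered 2.14 and 1.66 Mb in WT and 1.30 and 2.02 Mb in KO, and so overlapped.

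The 4 lists shared a core of regions, and the overlap of 2 lists depended little on genotype. The Jaccard index of covered bases was 0.444 between the WT lines and 0.411 between the KO lines, and 0.362, 0.385, 0.398 and 0.418 between a WT and a KO line. Merging overlapping peaks gave 126560 regions, of which 25670 (20.3%) were held by all 4 lines, with a median width of 1965 bases and 46.9% of them at promoters. Regions of both WT lines and neither KO line numbered 5566 (4.40%), and regions of both KO lines and neither WT line 2436 (1.92%). Leaving out 1 line, which loosens this rule to the lines that remain, gave between 7932 and 36537 WT-only regions and between 3679 and 19854 KO-only regions. Regions held by 1 WT and 1 KO line only were fewer than the WT-only regions in each pairing, and in 2 of the 4 pairings more than the KO-only regions. WT 532 with KO 534 alone shared 4647 regions, WT 532 with KO 530 2979, WT 541 with KO 534 2206 and WT 541 with KO 530 1255. At a deposited −log10 q of at least 2 the genotype-only counts were 3228 and 1137.

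**Figure D2:**
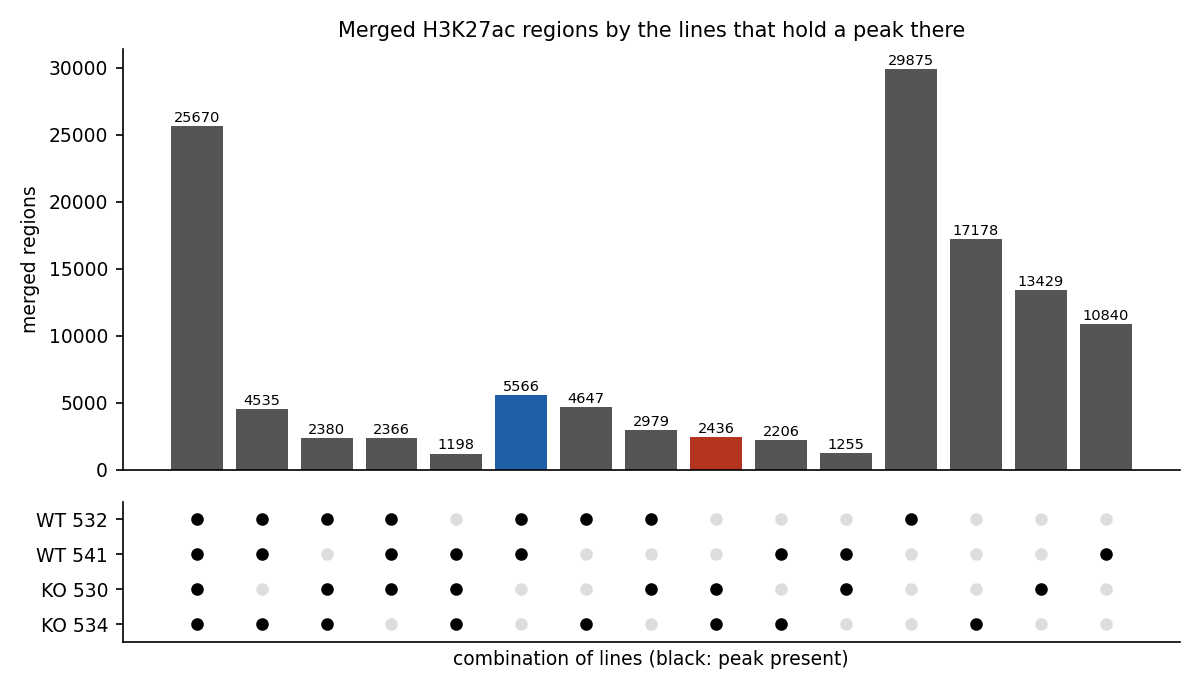
Bars give the number of merged H3K27ac regions for each combination of lines, with black dots below for the lines that hold a peak, the WT-only pair in blue and the KO-only pair in red. Regions of all 4 lines (25670) formed the largest shared group, and the crossed pair of WT 532 and KO 534 (4647) lay between the WT-only pair (5566) and the KO-only pair (2436).

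Regions seen in 1 genotype only were short and mostly away from promoters. WT-only regions had a median width of 916 bases, 5.19% were at promoters and 3 reached 5 kb. KO-only regions had a median width of 826.5 bases, 4.97% were at promoters and 0 reached 5 kb, whereas 2049 of the regions of all 4 lines did.

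At promoters most genes had the same state in all 4 lists. Of 23906 named genes, 12926 (54.1%) had a promoter peak in all 4 lines and 7936 (33.2%) in none. A promoter peak in both WT lines and neither KO line was found for 259 genes (1.08%), one in both KO lines and neither WT line for 106 genes (0.443%), and the other 2679 (11.2%) had mixed patterns. With 1 line left out the 2 genotype-only counts ranged from 382 to 787 and from 192 to 532. For 61 of the 259 and 33 of the 106 genes the promoter touched a merged region not held by exactly the 2 lists of that genotype. Such a region either reached into a list of the other genotype or was held by 1 list alone, and these cases were not separated. In the former case the difference was one of where a peak ended.

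Genes of the enzymes that write, erase and read the mark had promoter acetylation in nearly all lists. All 9 acetyltransferase genes had a promoter peak in all 4 lists, among them Crebbp and Ep300, which encode CBP and p300. Ep300's promoter peak had a fold of 16.0, 13.0, 13.5 and 15.8. The RNA of none of the 9 passed edgeR's test in batch 3 at a Benjamini-Hochberg adjusted p under 0.05. In batch 1, 3 rose, among them Crebbp (0.61) and Ep300 (0.54), and 2 fell, against 34.5% and 34.9% of all genes tested. At the promoter, 5 of the 9 had promoter peaks that were narrower in both KO lines than in both WT lines, against 34.9% of genes with a peak in all 4 lines. All 7 genes of acetyl-lysine readers, such as the bromodomain proteins, had the peak in all 4 lists. Of the 14 deacetylase genes 12 did, and the remaining 2 were Hdac8, absent from WT 541, and Hdac9, absent from KO 530. The Hdac9 promoter peak was 1994 and 2006 bases wide in the WT lists and 217 bases in KO 534, and the gene's RNA fell in batch 3 (log2 fold change -1.75, SE 0.17, edgeR, Benjamini-Hochberg adjusted p = 0.000561). All 15 constitutively expressed genes of a control list carried the peak in all 4 lists, and Actb's was 5787, 5995, 5767 and 5992 bases wide. Of the 15, 5 were narrower and 0 wider in both KO lists, against 34.9% and 9.30%. Within the gene and 20 kb on either side, H3K27ac covered less in both KO lists for 8 and more for 1, against 39.5% and 6.29%. In batch 3, 7 fell and 0 rose in RNA, against 14.4% and 17.3% of all genes tested. In batch 1, 12 fell and 2 rose, against 34.9% and 34.5%.

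The targeted gene itself had a promoter peak in every list. At Mettl14 (chr3:123368293-123385990) the peak was 1338, 1274, 1299 and 1279 bases wide. Its RNA, counted over the whole gene, was 37.8 and 35.5 CPM (estimated counts scaled to the total of the library) in the WT libraries of batch 3 and 30.4 and 22.8 CPM in the KO libraries (adjusted p = 0.0843 in edgeR's test with Benjamini-Hochberg adjustment). The deposited gene totals do not separate the deleted part of the gene from the rest, so neither value checks the genotype of a line.

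The promoter peaks of radial glia genes were held in every list, and most were narrower in both knockout lines. The width is that of the widest peak at a start of the gene. All 26 genes of the neural stem cell and radial glia list had a promoter peak in all 4 lists, so the defining promoters of the labelled cell type were acetylated in each line. In 20 of the 26 the peak was narrower in both KO lines than in either WT line, and in 1, Id1, it was wider, against 34.9% and 9.30% of the 12926 genes with a peak in all 4 lists. The median KO to WT ratio of width was 0.769 over the list and 0.935 over all those genes. Broad peaks were narrower more often: of the 12926 genes, 518 had a mean width of at least 4 kb, and 56.4% of these were narrower. In the list 10 genes were that broad, and 8 of those 10 were narrower. Within the gene and 20 kb on either side, H3K27ac covered less in both KO lists for 21 of the 26 genes and more for 1, against 39.5% and 6.29% of all, with median ratios of 0.691 and 0.860.

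Several of these genes had a peak that was shorter by a large part. Tnc, which encodes the extracellular matrix protein tenascin C (chr4:63959773-64047015), had a promoter peak of 4430 and 4538 bases in WT and of 1398 and 2030 bases in KO. Nr2e1, the nuclear receptor Tlx that keeps neural stem cells dividing, had 8041 and 8968 bases against 2971 and 2792. The KO values of both genes lay far under the WT values. Pax6, a transcription factor of dorsal forebrain progenitors, had 6162 and 9071 bases in WT and 2520 and 4211 bases in KO. Fabp7, the fatty acid binding protein of radial glia, had 2437 and 4810 bases against 725 and 886. Prom1, which encodes the stem cell surface protein prominin, had 1997 and 2011 bases against 819 and 1254. The KO values of these 3 genes lay under the WT values too. Hes5, a Notch target, varied widely between the WT lines (8635 and 18062 bases), and its KO peaks were 5689 and 4961 bases wide.

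Other radial glia genes differed little at the promoter. The intermediate filament gene Nes had 6049 and 5620 bases in WT and 5473 and 5128 in KO, and Sox2, the transcription factor that marks neural stem cells, had 3794 and 3754 bases against 3543 and 3645. Around Sox2, however, the peaks covered 29.4 and 26.6 kb in the WT lists and 16.3 and 18.3 kb in the KO lists. Msi2, which encodes an RNA-binding protein of stem cells, was covered over 145.5 and 148.3 kb in WT and over 62.8 and 81.5 kb in KO.

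**Figure D3:**
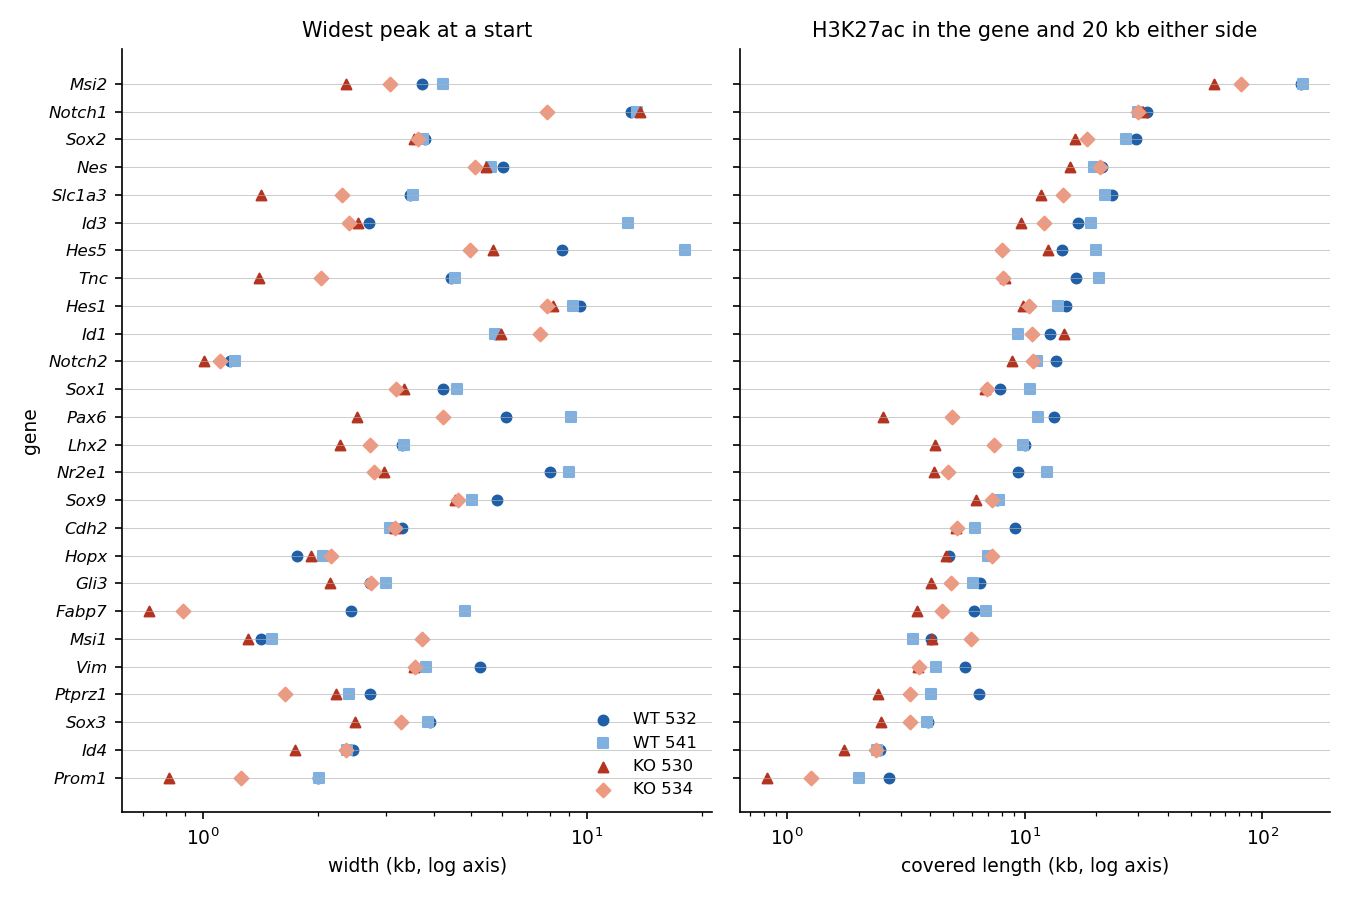
Points give, for each of the 4 lines and the 26 radial glia genes, the width of the widest H3K27ac peak at a start (left) and the length covered in the gene and 20 kb on either side (right), in kb on log axes. Both KO points lie left of both WT points for 20 genes in the left panel and 21 in the right, with wide gaps at Fabp7, Nr2e1 and Tnc.

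The RNA of this list went both ways. Of the 26 genes 9 fell in batch 3 (Hopx, Msi2, Nes, Nr2e1, Pax6, Prom1, Ptprz1, Tnc and Vim) and 5 rose (Id4, Msi1, Notch2, Slc1a3 and Sox2) in edgeR's test at a Benjamini-Hochberg adjusted p under 0.05. Over all 12830 genes tested 14.4% were lower and 17.3% higher in KO. The summed RNA of the list was 13396 and 13925 CPM in WT and 8606 and 8201 CPM in KO, and in such bulk samples fewer cells of a type and less RNA per cell cannot be told apart. Without 1 WT library those calls dropped to 872 to 1024 lower and 1204 to 1326 higher genes. Tnc was measured at 1663 and 1866 CPM in WT and at 332 and 334 CPM in KO (log2 fold change -2.41, SE 0.17), and Nr2e1 fell by 2.00 on the log2 scale. In batch 1, 10 of the 26 fell and 10 rose, near the 34.9% and 34.5% of all genes tested there. Sox2, whose promoter peak was marginally narrower in KO, rose (0.95), as did Id4 (1.14).

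Of the cell cycle genes about as many had narrower peaks as had overlapping widths. All 17 genes of cyclins, G1 kinases and CDK inhibitors had the peak in all 4 lists, 9 were narrower in both KO lists and 0 wider, against 34.9% and 9.30% of all genes with the peak in 4 lists. A mean width of at least 4 kb was found for 5 of them, of which 4 were narrower, against 56.4% of all genes that broad. Around 14 of the 17 H3K27ac covered less in both KO lists, against 39.5%. Ccnd1, which encodes cyclin D1, had a promoter peak of 11276 and 10474 bases in WT and 8368 and 9366 in KO, and its surroundings were covered over 21.4 and 17.9 kb against 11.4 and 12.3 kb. Cdkn1a, the gene of the CDK inhibitor p21, had 6671 and 6805 bases against 2696 and 2196. The RNA of 8 of the 17 fell in batch 3 and that of 1, Cdkn2d, rose, against 14.4% and 17.3% of all genes tested. In batch 1, 11 fell and 2 rose, against 34.9% and 34.5%. Ccnd1, whose deposited count also covers a microRNA gene at the locus, fell by 1.77 and Cdkn1a by 0.92 on the log2 scale.

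Glial lineage genes included large differences in width. Cspg4, which encodes the NG2 proteoglycan of oligodendrocyte precursors, had a peak of 20257 and 20539 bases in WT and of 1708 and 10864 in KO. Nkx2-2, a transcription factor of ventral and oligodendrocyte progenitors, had 5856 and 5688 bases against 907 and 1804. Both genes' RNA fell in batch 3, by 1.58 and 0.84 on the log2 scale. Of 16 astrocyte genes 15 had the peak in all 4 lists, with 8 narrower and 2 wider in KO, against 34.9% and 9.30%. In batch 3, 5 of the list's 15 tested genes rose (Apoe, Glul, Nfix, S100b and Slc1a2) and 4 fell (Aldh1l1, Aldoc, Cd44 and Fgfr3), against 17.3% and 14.4% of all genes tested. In batch 1, 11 of 16 rose and 3 fell, against 34.5% and 34.9%. Nfia, a factor that opens the astrocyte programme, went from 6391 and 5248 bases in WT to 2900 and 2377 in KO.

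The 2 wider astrocyte genes were Apoe and Slc1a2. Apoe, the lipid carrier of astrocytes (chr7:19696244-19699166), had a peak of 1320 and 817 bases in WT and of 4053 and 3770 in KO. Its RNA was 47.6 and 22.3 CPM in the WT libraries of batch 3 and 298.4 and 259.3 CPM in KO, a rise of 2.99 on the log2 scale (SE 0.31, edgeR, Benjamini-Hochberg adjusted p = 0.000715), and it rose by 3.34 in batch 1. Aqp4, a water channel of astrocytes, went the other way in width, with 7570 and 3850 bases in WT against 306 and 1034 in KO, while its RNA did not pass the test in batch 3 (log2 fold change 1.20) and rose in batch 1 (3.21).

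Genes with narrower peaks had lower RNA in KO more often than higher RNA, and genes with wider peaks the reverse. Promoter peaks were narrower in both KO lines for 4514 of the 12926 genes (34.9%) and wider in both for 1202 (9.30%). With 1 line left out these counts were 6040 to 7524 and 2223 to 3416, the rule again being looser with fewer lines. The share of narrower peaks was greater where the peak was broad: 30.1% of genes with a mean width under 1 kb, 32.8% from 1 to 2 kb, 40.9% from 2 to 4 kb and 56.4% from 4 kb up (292 of 518, with 19 wider). Among the genes with narrower peaks, both KO libraries of batch 3 lay under both WT libraries for 1820 (40.3%) and above them for 1160 (25.7%), against 32.3% and 33.4% of all genes with a peak in the 4 lists. Among the genes with wider peaks the shares were 19.1% under and 46.9% above. In batch 1, made from other lines, the shares were 45.3% and 29.6% for narrower and 24.4% and 45.4% for wider peaks, against 37.2% and 35.3% of all such genes.

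The broadest domain, at Mir9-1, was split into several peaks in the KO lists. It formed 1 peak of 37042 bases in WT 532 (chr3:88199785-88236826) and of 37317 bases in WT 541, and the peak at the start of Mir9-1 was 12896 and 14320 bases wide in KO. Within 20 kb of the gene, however, peaks covered 37.7 and 37.3 kb in WT and 32.0 and 33.2 kb in KO. A narrower peak in a KO list can thus be part of a domain that was called as several peaks. At 2 other broad domains the widths overlapped between the genotypes: the peak at Mtss1l was 20205, 20886, 20280 and 32349 bases wide, and that at Bahcc1 11719, 24579, 11029 and 16722, with a rise of 1.23 on the log2 scale in Bahcc1's RNA in batch 3.

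Genes with a promoter peak in the WT lines only had lower RNA in KO more often than higher RNA, and genes with one in the KO lines only the reverse. Both KO libraries of batch 3 lay under both WT libraries for 87 of the 259 genes (33.6%) and above them for 21 (8.11%), against 22.1% and 21.3% of all 23906 genes. No fragment was counted for 51 of the 259. For the 106 genes with the peak in the KO lines only, 11 (10.4%) lay under and 21 (19.8%) above, and 34 had no fragment. Their share above was thus near that of all genes, and only their share under was clearly lower. In batch 1, where 23.0% of all genes lay under and 24.4% above, the shares were 22.8% and 13.9% for the first class and 3.77% and 27.4% for the second. There the share under of the first class and the share above of the second were near those of all genes, and the opposite shares were lower.

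**Figure D4:**
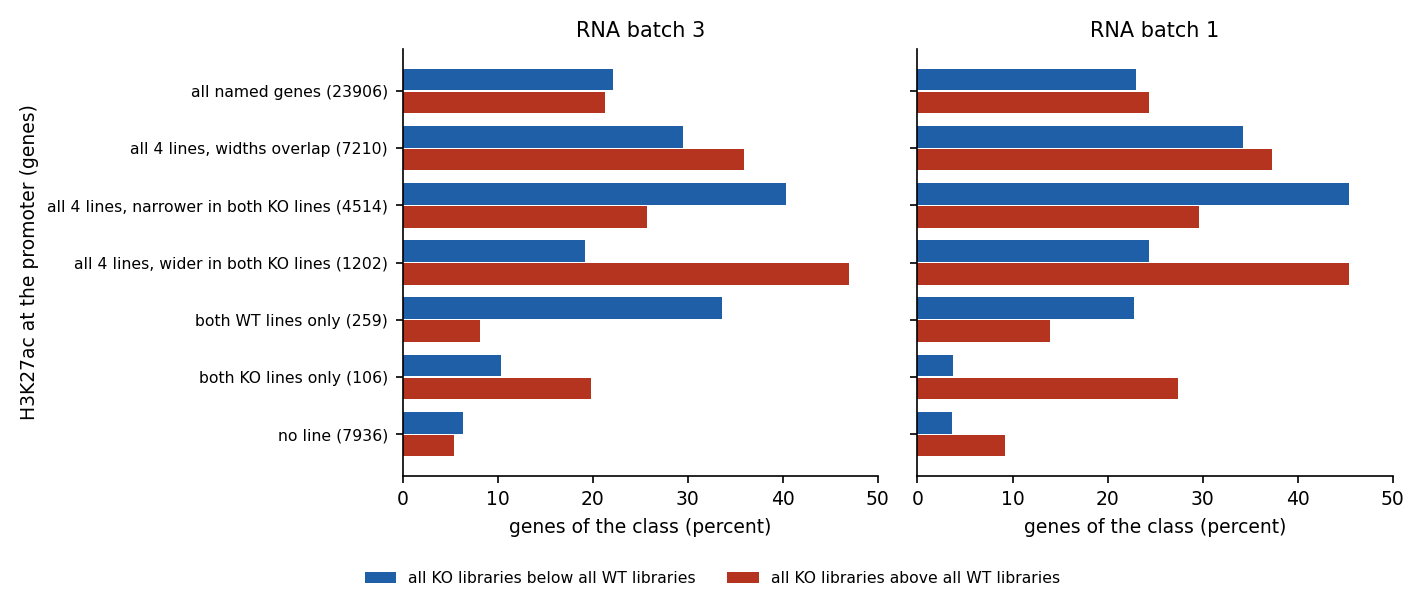
Bars give the percent of the genes of each promoter H3K27ac class whose RNA was lower in all KO than in all WT libraries (blue) or higher (red), for batch 3 (left) and batch 1 (right), with the number of genes in brackets. In both panels blue exceeds red for genes with narrower KO peaks or WT-only peaks, and red exceeds blue for genes with wider KO peaks or KO-only peaks.

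The minority of each class that had enough RNA to be tested is given as a description. Of the 259 WT-only genes 89 passed the filter on low counts in batch 3, of which 44 fell and 6 rose (edgeR, Benjamini-Hochberg adjusted p under 0.05), with a median log2 fold change of -1.05. Of the 106 KO-only genes 20 passed it, of which 8 rose and 2 fell, with a median of 1.19. In batch 1, where 34.9% of 13411 genes were lower and 34.5% higher, the WT-only class had 103 genes tested, 44 lower and 26 higher with a median of -0.23, and the KO-only class 29 tested, 20 higher and 2 lower with a median of 1.38.

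The forebrain regulators Otx2 and Six3 had a promoter peak in the WT lists and none in the KO lists. Otx2, a homeobox gene of the anterior brain (chr14:48657677-48667644), had peaks of 2971 and 2339 bases with a fold of 5.22 and 3.84 in the WT lists. Its RNA was 11.3 and 7.17 CPM in WT and 0.332 and 0.115 CPM in KO, a log2 fold change of -5.37 (SE 0.51, edgeR, Benjamini-Hochberg adjusted p = 0.000541), and it fell by 3.05 in batch 1. Six3, which patterns the forebrain and eye (chr17:85620834-85626191), had peaks of 12421 and 5273 bases with a fold of 5.00 and 3.57. It was at 30.2 and 17.2 CPM in WT and 2.53 and 3.22 CPM in KO, and fell by 3.04 in batch 3 and 2.56 in batch 1. Within 20 kb of either gene the KO lists covered 0 bases. Both promoters carried H3K27me3 in all 4 lines, with a fold of 12.7, 14.7, 16.7 and 15.0 at Otx2 and 11.2, 13.8, 14.6 and 14.3 at Six3. Six3os1, the RNA transcribed from the opposite strand at Six3, fell as well (-4.96), and the labels and headers do not say whether the counting used strand, so the reads of the pair may be mixed.

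A further 9 forebrain regional factors had the peak in all 4 lists, of which 8 were narrower in both KO lists and 1, Zic2, was wider. Otx1, the relative of Otx2, went from 12630 and 12434 bases in WT to 6192 and 5687 in KO, and its RNA did not pass the test in batch 3 (-0.10).

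Of a list of 13 genes with large RNA falls, which was drawn from these RNA data and so is no independent evidence, 4 had WT-only promoter peaks: Anxa3, Pcp4l1, AI593442 and Golga7b. Anxa3, a calcium-dependent membrane-binding annexin (chr5:96793385-96845968), had a fold of 5.09 and 4.94 in the WT lists and RNA of 63.8 and 61.4 CPM against 1.40 and 2.70 CPM. Pcp4l1, a relative of the calmodulin-binding protein Pcp4 (chr1:171173264-171196268), had a fold of 3.23 and 4.94 and RNA of 15.5 and 12.7 CPM against 0.598 and 0.287 CPM. Its surroundings were covered over 7.61 and 6.98 kb in WT and 0.429 and 1.79 kb in KO. AI593442 (chr9:52673032-52679780) had a fold of 4.18 and 6.14, and H3K27me3 was called at its promoter in both KO lines (7.08 and 9.12) and in neither WT line. The RNA of Anxa3, Pcp4l1 and AI593442 fell by 4.91, 5.00 and 4.87 on the log2 scale in batch 3 and by 9.02, 6.20 and 5.65 in batch 1.

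The same list held genes whose promoter peak was shorter in KO but present in at least 1 KO list. Thbd, which encodes thrombomodulin, had a peak of 5522 and 4686 bases in WT, none in KO 530 and 438 bases in KO 534. Dhh, the Desert hedgehog ligand, had 3525 and 3207 bases against 915 and 1079. Mest, an imprinted gene, had 6478 and 6621 bases against 727 and 3482.

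Lower-level genes with WT-only promoter peaks that were named by the size of their RNA change were Lin7b, Adamts19, Des, Clgn and Gna14. Lin7b, a cell polarity scaffold gene, was at 0.997 and 1.08 CPM in WT and at 0 CPM in both KO libraries of batch 3, and it had too few fragments to be tested in batch 1. At Des, the desmin gene, the merged region was also held by a KO line.

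Promoter peaks of neuronal genes in WT only did not always go with lower RNA. Ina, which encodes the neurofilament protein internexin, fell by 1.96 in batch 3. Tubb3, the neuronal tubulin, did not pass the test in batch 3 (-0.84) and rose in batch 1 (0.87). The interneuron factors Dlx1 and Dlx2 had a fold of 2.97 and 3.59 and of 3.32 and 3.44 in WT, and neither passed the test in batch 3. All 4 carried H3K27me3 in every line. Of all 20 neuronal genes 9 had the peak in all 4 lists, 5 in none and 4 in other patterns.

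The strongest WT-only promoter peaks by fold were at Psmc1, Snord45b, Snora62, Tmem79, 5930438M14Rik, 6430503K07Rik, BC107364, Anxa3, Pcdhga6 and Tmem144. At Psmc1, a proteasome ATPase gene with a fold of 9.14 and 9.34, the merged region was held by all 4 lines. The KO peaks thus stopped short of the promoter window. The same was true of 5930438M14Rik and 6430503K07Rik. Tmem144 had a fold of 4.49 and 4.92, 0 bases were covered around it in the KO lists, and its RNA fell by 1.36.

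Among the genes marked in the KO lines only, Mog and Lrrtm4 had short promoter peaks and higher RNA in KO. Mog, the myelin oligodendrocyte glycoprotein (chr17:37010740-37023398), had a fold of 2.91 and 3.79 over 441 and 200 bases in the KO lists. Its RNA was 0.561 and 0.271 CPM in WT and 1.73 and 1.67 CPM in KO (log2 fold change 1.99, SE 0.51, edgeR, Benjamini-Hochberg adjusted p = 0.0208), and it rose by 3.13 in batch 1. Lrrtm4, a synaptic adhesion protein gene (chr6:80018877-80810143), had a fold of 3.80 and 2.90 over 351 and 197 bases. It was at 2.43 and 3.11 CPM in WT and 17.6 and 12.2 CPM in KO and rose by 2.42, with 2.45 in batch 1. The KO libraries of both genes lay above all WT libraries in either batch.

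A further 4 genes with KO-only peaks rose in both batches. Kndc1 rose by 2.14 and 4.52, Frem1, an extracellular matrix gene, by 2.16 and 1.72, the pseudogene Smarca5-ps by 2.02 and 1.93 and the orphan receptor gene Gpr179 by 1.32 and 2.62 (log2 scale, batch 3 and batch 1). Reads of Smarca5-ps may come from its parent gene and are uncertain. Gnb3, which encodes a G protein subunit, was at 0 and 0.0677 CPM in WT and 1.13 and 1.61 CPM in KO in batch 3, and did not pass the test in batch 1 (0.79). At Frem1 and Gnb3 the promoter touched a merged region that was not held by exactly the 2 KO lines. Mobp, a second myelin gene, had a KO-only promoter peak with a fold of 3.47 and 3.01, and too few fragments to be tested. The strongest KO-only peaks by fold were at Clec11a, Mir6922, Kcng4, Sema6b, Naprt1, Lrrc10, Rnase10, Zyg11a, 1700030C10Rik and Smarca5-ps, of which Clec11a reached 7.19 and 9.99. The Clec11a promoter touched merged regions held by different sets of lines. Within 20 kb of the gene, peaks covered 1.95 and 2.46 kb in the WT lists.

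**Figure D5:**
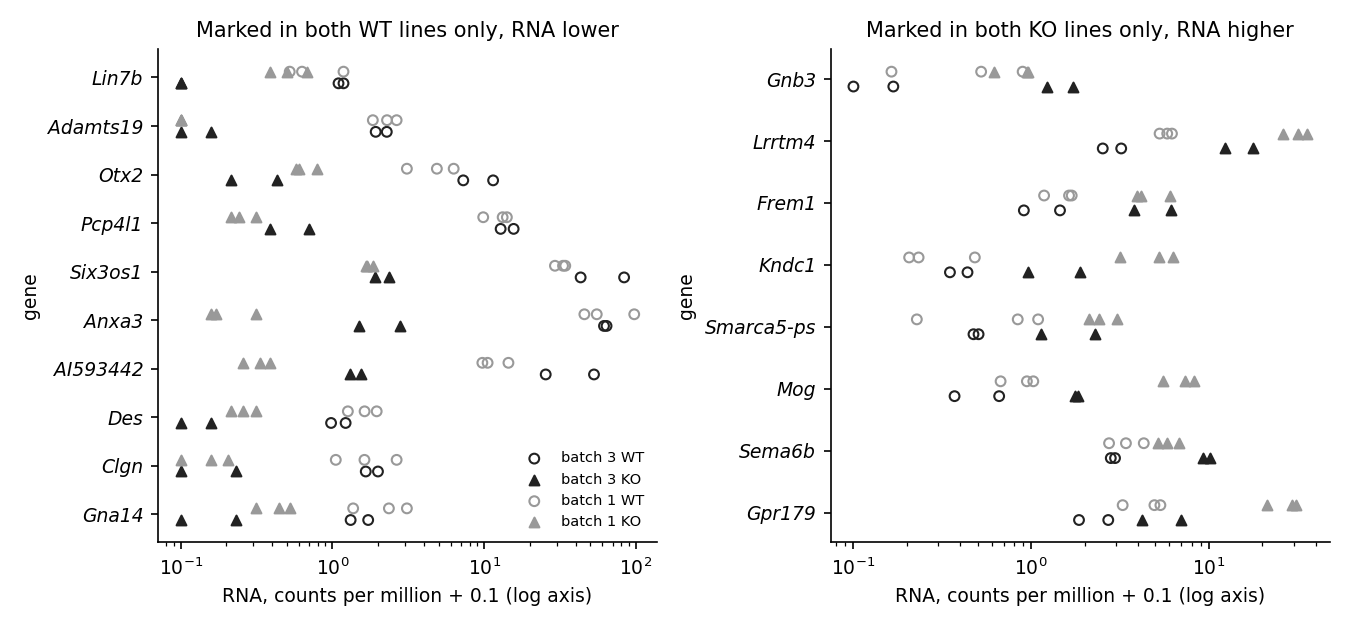
Points give the RNA in each library of batch 3 (black) and batch 1 (grey), as CPM + 0.1 on a log axis, of the genes with a promoter peak in WT only (left) or KO only (right) and the largest called RNA change in the direction of the mark in batch 3. Within a batch the KO triangles lie left of the WT circles for Otx2 and Anxa3 and right of them for Mog and Lrrtm4, while for Lin7b and Gnb3 they overlap in batch 1.

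Gad1, which encodes an enzyme of GABA synthesis (chr2:70562164-70602012), belonged to neither class. Its promoter peak was 459 bases wide in WT 532, absent in WT 541 and 1559 and 2017 bases wide in KO, with a fold of 2.77, 4.12 and 4.21 where present. Its RNA was 3.49 and 3.65 CPM in WT and 86.4 and 84.9 CPM in KO and rose by 4.58 in batch 3 and by 4.35 in batch 1. H3K27me3 was present in all 4 lines, with a fold of 8.59, 10.2, 5.28 and 4.81.

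Genes of the Notch, Hedgehog, Wnt and BMP pathways were mostly acetylated in all lines. Of 34 genes 25 had the promoter peak in all 4 lists, 4 in none, 3 in other patterns, 1 in WT only (Bmp2, a BMP ligand) and 1 in KO only (Jag2, a Notch ligand). Among the 25, 11 were narrower and 5 wider in KO, against 34.9% and 9.30%. In RNA 9 of 28 tested genes rose and 6 fell in batch 3, against 17.3% and 14.4% of all genes tested. In batch 1, 15 of 27 rose and 8 fell, against 34.5% and 34.9%. The 5 genes with wider peaks were the Notch target Hey2, the Fringe enzyme gene Lfng and the Wnt pathway genes Nkd1, Sfrp1 and Apcdd1. Nkd1, a feedback inhibitor of Wnt signalling, went from 1149 and 1056 bases in WT to 1740 and 1600 in KO, and its RNA rose by 2.25 in batch 3. Apcdd1, another Wnt inhibitor, went from 605 and 467 bases to 918 and 1056, and its RNA rose by 1.86. Of the remaining wider genes Hey2 rose (2.60), Lfng fell (-0.75) and Sfrp1 did not pass the test (-0.04). Lef1, a Wnt effector, had no promoter peak in KO 530, was covered over 9.77 and 6.40 kb in WT and 1.84 and 2.86 kb in KO, and fell by 3.32.

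The 15 immediate early genes kept their promoter peak in all 4 lists, with 8 narrower and 2 wider in KO, against 34.9% and 9.30% of all genes with the peak in 4 lists. Many of their peaks were broad. A mean width of at least 4 kb was found for 10 of the 15, of which 5 were narrower, against 56.4% of all genes that broad. In RNA 10 fell and 1 rose in batch 3, against 14.4% and 17.3% of all genes tested. In batch 1, 7 fell and 4 rose, against 34.9% and 34.5%. Fos had a peak of 4577, 4825, 4709 and 5458 bases, so its width overlapped between the genotypes, and its RNA fell by 1.85 in batch 3 and rose by 0.70 in batch 1.

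H3K27me3 lay at many of the promoters that differed. It was called in all 4 lines at 94 of the 259 WT-only genes (36.3%) and 18 of the 106 KO-only genes (17.0%), against 11.3% of all genes and 7.02% of those with H3K27ac in all 4 lines. Among the 2679 genes with mixed H3K27ac patterns the share was 27.5%, above that of the KO-only genes. It was thus also frequent at promoters whose H3K27ac calls varied without following genotype. H3K27me3 in both KO lines and neither WT line was seen at 8 of the 259 genes (3.09%), against 1.04% of all. These were AI593442, Arsj, Btn1a1, Gm1715, Gpx3, Pcdhga8, Pla2g16 and Scn3b. The reverse, H3K27me3 in both WT lines and neither KO line (0.711% of all genes), was seen at 1 of the 106 KO-only genes, Sema6b, whose H3K27ac promoter peaks touched a region that a WT line also held. None of the 38 Hox genes had H3K27ac in all 4 lines, 37 had none in any, and all 38 had H3K27me3 in every line.

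Away from promoters 5277 regions were WT-only and 2315 KO-only, against 13633 in all 4 lines. Their median distance to the nearest start of a named gene was 37.4 kb for WT-only, 33.0 kb for KO-only and 30.5 kb for shared regions, and 40.6%, 38.1% and 34.1% lay over 50 kb away. The WT-only regions with the highest fold were at chr7:101161161-101162003 (intron, nearest start Fchsd2, fold 5.77 and 5.68), chr15:66353410-66353749 (outside genes, Kcnq3, 5.55 and 6.65), chr9:16148454-16151237 (intron, Fat3, 5.97 and 5.44), chr3:130337843-130338164 (intron, Col25a1, 5.99 and 5.36) and chr9:41585240-41586401 (intron, Mir125b-1, 5.29 and 5.72). The RNA of Fat3, an atypical cadherin gene, fell by 1.26 and that of Col25a1, a membrane collagen gene, by 1.85 in batch 3, and Fchsd2 and Kcnq3 did not pass the test there. In batch 1 Fat3 and Col25a1 fell by 1.04 and 2.31, and Kcnq3 and Mir125b-1 rose by 0.91 and 1.99. The strongest KO-only regions lay nearest to Psg28, Tmem65, Phf20, Ica1 and Cyp4f18, of which Phf20 rose by 0.54 in batch 3 and was not called in batch 1. Ica1 was not called in batch 3 and fell by 0.61 in batch 1, and the others were not called or not tested in either batch.

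Some genes had many genotype-only regions nearest to their start. These genes were picked by that number after the values were seen. Npas3, a bHLH-PAS transcription factor gene of the brain (chr12:53248426-54072346), had 25 WT-only and 0 KO-only regions. H3K27ac covered 127 and 105 kb in the gene and its flanks in the WT lists and 36.7 and 33.1 kb in KO, and the promoter peak went from 8179 and 8073 to 3005 and 3119 bases. Its RNA rose from 162.5 and 137.6 CPM in WT to 349.1 and 325.0 CPM in KO (log2 fold change 1.17, SE 0.14, edgeR, Benjamini-Hochberg adjusted p = 0.0011). Creb5, a CRE-binding transcription factor gene (chr6:53287295-53698347), had 9 WT-only regions, was covered over 58.7 and 43.6 kb in WT and 16.9 and 22.1 kb in KO, and fell by 1.73, a value that its deposited count shares with another annotated gene. The noncoding C530044C16Rik had 12 WT-only regions and fell by 3.20. Tns3 had 12, Xylt1 10 and Tgfbr2 and Cdh13 9 each, beside 1, 1, 2 and 4 KO-only regions, and the RNA of none of these 4 passed the test in batch 3. Of the 10 genes named in this way for WT-only regions, 4 fell, 2 rose (Npas3 and Tcf4) and 4 did not pass the test in batch 3. On the KO side Atg7, an autophagy gene, had 6 KO-only and 3 WT-only regions and rose by 0.66, and Ackr3, a scavenger receptor of the chemokine Cxcl12, had 4 KO-only and 0 WT-only regions and rose by 1.39, whereas Arhgef16, with 4 KO-only and 1 WT-only regions, fell by 1.42. Dpp6, with 5 KO-only and 5 WT-only regions, and Cep164, with 4 and 0, did not pass the test in batch 3. In batch 1 Dpp6 fell by 1.23, and Cep164 did not pass the test.

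Genes nearest to several WT-only regions had lower RNA in KO more often than higher RNA, and genes nearest to several KO-only regions the reverse. Of 282 genes with 3 or more WT-only regions, both KO libraries of batch 3 lay under both WT libraries for 104 and above for 53, and in batch 1 all KO libraries lay under for 96 and above for 73. Of 38 genes with 3 or more KO-only regions, 21 lay above and 4 under, and in batch 1, 20 and 2. Of 6446 genes nearest to regions of all 4 lines 1691 lay under and 1731 above in batch 3, and over all genes the shares were 22.1% and 21.3%. With a single region the counts were 582 under and 440 above of 1970 genes for WT-only, and 282 above and 189 under of 1003 genes for KO-only.

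Markers of other cell types were held to different degrees. Of 8 microglia markers 0 had a promoter peak in all 4 lists and at most 1 in any list, and their summed RNA was between 0.399 and 1.25 CPM in the batch 3 libraries. Of 8 endothelial markers 1, Kdr, had the peak in all 4 lists, 4 were held in each WT list and 3 in each KO list, and their summed RNA was between 1.84 and 2.93 CPM. Of 10 fibroblast and pericyte markers 2, Acta2 and Tagln, had it in all 4 lists, 5, 2, 4 and 4 were held in the single lists, and Col1a2, Col3a1, Dcn, Lum and Postn had it in none. The fibroblast markers' summed RNA was 6.36 and 3.05 CPM in WT and 9.51 and 18.9 CPM in KO, and the part of such cells in the results was not tested. Of 13 oligodendrocyte genes 8 had the peak in all 4 lists, with Mog and Mobp as the KO-only ones. Their summed RNA in batch 3 was 2191 and 2289 CPM in WT and 2687 and 3003 CPM in KO. In batch 1 it went the other way, with 2089, 1737 and 1769 CPM in WT and 1749, 1635 and 1666 CPM in KO.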

How the data were processed

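Peaks, merged regions and promoters of the 4 H3K27ac lists were compared, with the 4 H3K27me3 lists and 10 RNA libraries of WT and KO cultures as further readouts. The lists are on mm10, and Bowtie2 2.3.1, MACS2, TopHat2 2.1.0, Cufflinks and Cuffdiff are named in the submitters' processing notes. Per the file headers and values, the deposited broadPeak lists give a fold enrichment of each peak over input (a ratio) and −log10 p and q values, 1 list per line; the threshold used is not given in the sources used here. The RNA tables deposited by the authors hold FPKM and estimated counts of fragments per gene locus and replicate, per the file headers, and their columns do not say which line a replicate is.

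Peaks were merged where they overlapped by at least 1 base, and a line held a region or promoter (1 kb either side of any start of a named gene in the deposited transcript assembly, transcript classes = and j) if a peak overlapped it by 1 base. A peak is narrower in KO when both KO widths lie under both WT widths. Peak numbers and covered length were compared by an exact two-sided permutation test over lines. RNA was tested on rounded estimated counts with edgeR 4.0.16 in R 4.3.3 (quasi-likelihood, TMM, filterByExpr, Benjamini-Hochberg adjustment over all genes tested, threshold 0.05), tested first on simulated data. CPM values are scaled to the library's total over genes that passed filterByExpr, times its TMM factor. The libraries held 14.8 to 17.4 M fragments in batch 3 and 13.7 to 19.3 M in batch 1. DESeq2 1.42.0 and limma 3.58.1 on log2(FPKM + 1) were alternatives.

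Genes named are the members of the lists, up to 10 genes per direction with the highest fold among promoters held by 1 genotype only, up to 10 with the largest called RNA change in the direction of the mark, those nearest the 5 widest and 5 highest peaks, and those nearest the 5 strongest distal regions of each genotype; genes on the Y chromosome and unnamed loci were left out. The members and lists were chosen with earlier results of these data known. The width classes, the covered length around genes and the genes with many distal regions were chosen after values were seen. Sequences are RefSeq's; promoter sequence was not compared between classes.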

Additional observations from a re-analysis of the deposited data

How the results depend on the processing

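Of 98 alternative values, 68 were labelled the same, 29 moved and 1 reversed. A count was the same within 1.5 times, and a KO minus WT difference whenever its sign held. A median was the same within the median SE of its class (0.447 for WT-only and 0.497 for KO-only genes). The difference in peak number was thus labelled the same at -3452 for a −log10 q of at least 2, against -8628 in the main setting. The reversed one was the KO minus WT difference in peak number, 4281 without WT 532 (range -21540 to 4281 with each line left out); that of covered length ranged from -25.21 to -10.89 Mb. With each line left out, which leaves fewer lines to meet the rule, WT-only regions ranged from 7932 to 36537, KO-only regions from 3679 to 19854, WT-only promoters from 382 to 787, KO-only promoters from 192 to 532, narrower peaks from 6040 to 7524 and wider peaks from 2223 to 3416. At a deposited −log10 q of at least 2 the regions numbered 3228 and 1137, and the median RNA log2 fold change of KO-only genes was 0.66; the cause was not tested. For WT-only genes that median was -1.51 where the merged region was also held by WT only, and -0.23 in batch 1. RNA calls in batch 3 with each library left out ranged from 1204 to 2967 higher and from 872 to 2683 lower, and in batch 1 from 4255 to 4721 and from 4188 to 4721. With 55130 peaks taken from every list the genotype-only promoters numbered 240 and 126 and the narrower and wider peaks 4492 and 1186. No paired analysis was possible because the lines and RNA columns compared carry no number shared between WT and KO. The number of lines, 2 per genotype, and the unknown depth of the lists limit the precision.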
